A study of Rattus norvegicus with 6 samples.

Results

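miR-124 and miR-9 are the microRNAs (miRNAs) most closely tied to the making of neurons, and their 4 mature rat strands, rno-miR-124-3p, rno-miR-124-5p, rno-miR-9a-5p and rno-miR-9a-3p (written below without the prefix for rat), were followed here through 6 small RNA libraries of rat brain. They were chosen by name from the 775 miRNAs that the deposited count table lists. All 4 passed the minimum of 10 counts over the 6 libraries, as did 454 miRNAs in total. The libraries came from brains of 2-vessel occlusion (2VO) rats, a model of vascular dementia in which both common carotid arteries are ligated so that blood flow to the brain stays low. Of these libraries, 3 were labelled 2VO and 3 were labelled 2VO with tilianin. Tilianin is a flavonoid glycoside from Dracocephalum moldavica, and it was given by gastric tube each day for 4 weeks, at 40 mg/kg in a 0.5% solution of CMC-Na. Rats of the 2VO group were given the same solution without tilianin, at 5 mL/kg. Per the methods of the study, the animals were male Sprague-Dawley rats bought at an age of 7 weeks and therefore older when sampled, and both groups carried the same arterial ligation. The tissue label is brain, which a legend in the study narrows to cortex. Neither the labels nor the methods say whether a library is 1 rat or a pool, so p-values measure the spread between these libraries. Values by library are listed throughout in the order of replicates 1, 2 and 3.

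A miRNA is cut from a hairpin whose arms give a 5p and a 3p strand, and usually 1 arm, the guide, is kept in the silencing complex while the other, the passenger, is mostly lost. The guide recognises messenger RNAs mainly through its seed, bases 2 to 8. miR-124-3p is the guide of miR-124, a strand abundant in nearly all mature neurons, where it represses non-neuronal transcripts such as that of the splicing factor Ptbp1 and components of the REST repressor. miR-9a-5p is the main strand of miR-9, which acts in neural progenitors and neurons and also represses REST, and the opposite strand miR-9a-3p is itself loaded and has been assigned targets of its own, including the REST cofactor CoREST. miR-124-5p is the passenger of miR-124. These roles are background and were not measured in the libraries.

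The miR-9a strands are shown because their sequences decide what their counts can and cannot separate. RefSeq gives both strands, with the seed in capitals:
miR-9a-5p: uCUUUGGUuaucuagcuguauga
miR-9a-3p: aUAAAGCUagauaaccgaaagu
miR-9b-5p: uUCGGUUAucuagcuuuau
miR-9b-3p: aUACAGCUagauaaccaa
The count table also lists the miR-9b strands, and they come from hairpins transcribed from the opposite DNA strand of the miR-9a genes. miR-9b-3p is the exact reverse complement of bases 4 to 21 of miR-9a-5p, and miR-9b-5p is that of bases 1 to 19 of miR-9a-3p. Because the miR-9 hairpin folds on itself, the antisense strands also resemble the sense strands of the same arm. miR-9b-5p can be placed in miR-9a-5p with 2 edits and miR-9b-3p in miR-9a-3p with 2 edits. Apart from miR-9b, no listed miRNA with a RefSeq sequence lay within 3 edits of a miR-9a strand, and 0 shared the seed of either strand. Sequences were found for 689 of the 775 listed miRNAs and for 2 of the 4 strands, those of miR-9a.

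miR-9a is made from 3 genes, which lie on chromosomes 2 and 1 in the GRCr8 assembly of RefSeq, and their hairpins are shown, 5′ to 3′, with both mature strands in capitals:
Mir9-1: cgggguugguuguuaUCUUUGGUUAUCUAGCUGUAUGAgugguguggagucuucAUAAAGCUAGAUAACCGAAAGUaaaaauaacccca
Mir9-2: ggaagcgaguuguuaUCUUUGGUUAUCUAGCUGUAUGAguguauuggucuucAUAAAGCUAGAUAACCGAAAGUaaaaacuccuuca
Mir9-3: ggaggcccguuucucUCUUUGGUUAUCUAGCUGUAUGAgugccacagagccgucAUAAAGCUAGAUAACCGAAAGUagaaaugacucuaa
In GRCr8 the Mir9-1 hairpin lies at chr2:175974971-175975059, that of Mir9-2 at chr2:15933292-15933378 and that of Mir9-3 at chr1:142849400-142849489, all on the plus strand, while the miR-9b hairpins Mir3597-1, Mir3597-2 and Mir3597-3 overlap them on the minus strand. These positions belong to the reference sequences only, as the build behind the counts is not given in the sources used here. Mir9-1 lies inside the long non-coding RNA gene LOC100911992. Mir9-2 lies inside Mir9-2hg and Mir9-3 inside the long non-coding RNA Mir9-3hg, host genes named after them. The hairpins shared 77.8% to 83.1% of aligned bases and differed in the loop (14 to 16 bases) and the flanks, whereas the mature strands were identical in all 3. A miR-9a count therefore sums over 3 genes and cannot be divided between them. The annotation likewise names 3 genes for miR-124, Mir124-1 on chromosome 15, Mir124-2 on chromosome 2 and Mir124-3 on chromosome 3, of which the first 2 lie inside long non-coding RNA genes.

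Library depth lay between 7175872 and 13198776 counts. Tilianin-treated replicate 2 stood apart from the other 5 libraries. Its Spearman correlations with them across tested miRNAs were 0.936 to 0.957, while each of those 5 reached 0.985 to 0.992 with its nearest library. It also held 21658 CPM (counts scaled to a common library size with edgeR's TMM method) of the Hox-cluster miRNAs (miR-10a-5p, miR-10b-5p and miR-196a-5p summed), which mark caudal nervous tissue among others, where the vehicle libraries held 89.8 to 149 CPM. Fold changes of the 4 strands, counts of calls, ratios and the summed share are therefore also given without it. Treated and vehicle libraries were set against each other in edgeR's quasi-likelihood test over all tested miRNAs, and the study's criterion was kept, which asks for p below 0.05 before adjustment and an absolute log2 fold change above 1.

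None of the 4 strands met the criterion, and the 95% intervals of all 4 log2 fold changes included 0. Of all tested miRNAs, 5.73% met it, 4.63% as upregulated and 1.10% as downregulated. Without treated replicate 2 none of the 4 strands met it either, beside 2.92% of 445 tested miRNAs, of which 2.02% were upregulated and 0.899% downregulated. No strand had an unadjusted p-value below 0.05, beside 7.27% of all tested miRNAs, and 4.49% without treated replicate 2. In edgeR's quasi-likelihood test 33 tested miRNAs had an unadjusted p below 0.05, and 0 had an adjusted p below 0.05. DESeq2's Wald test gave 3 miRNAs with an adjusted p below 0.05. With treated replicate 2 left out, the adjusted p from edgeR was below 0.05 for 4 miRNAs (0.899%) and for none of the 4 strands. The log2 fold changes of the 4 strands were -0.01 to -0.30 with a median of -0.25, beside a median of -0.03 over all tested miRNAs. Their median was -0.12 when treated replicate 2 was left out, with 3 of 4 below 0, beside a median of 0.01.

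**Figure D1:**
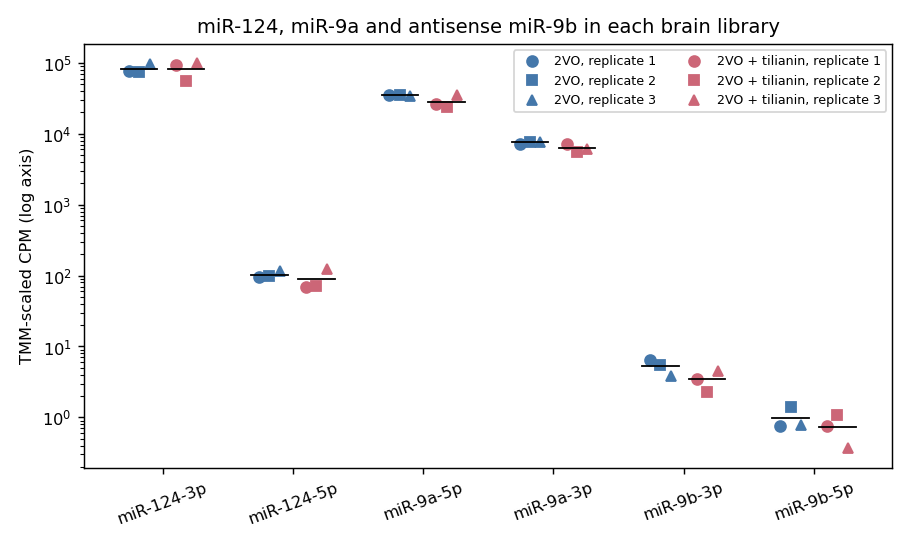
TMM-scaled CPM (log axis) of the strands of miR-124 and miR-9a and of the antisense miR-9b in each library, with 2VO in blue, tilianin-treated 2VO in red, a symbol for each replicate and a line at the group mean. The order of the strands is the same in all 6 libraries, and treated replicate 2 (red square) is the lowest for miR-124-3p at 55804 CPM.

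miR-124-3p was the third most abundant miRNA of the table by mean share and held 5.05% to 10.4% of all counts of a library. Vehicle libraries held 77748, 74146 and 96076 CPM of it. Tilianin libraries held 91854, 55804 and 98573 CPM. The treated group held both the highest and the lowest library, so the groups overlapped. Mean levels were 82656 ± 11760 CPM with vehicle and 82077 ± 23000 CPM with tilianin (SD, n = 3 each).

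The log2 fold change of miR-124-3p was -0.01 (standard error 0.241, 95% interval -0.58 to 0.56), with an adjusted p of 0.982 from edgeR's quasi-likelihood test. On a linear scale this interval spans 0.67-fold to 1.47-fold. Changes of that size in either direction are thus within the spread of these libraries. Without treated replicate 2 the log2 fold change was 0.23 (standard error 0.164, 95% interval -0.14 to 0.59), with an adjusted p of 0.997 from the same edgeR test, and its sign was then positive. With 362350 to 960700 counts a library, the counting error was at most 0.166%, far under the differences between libraries.

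miR-124-5p, the passenger, ranked 164th of the 775 listed miRNAs, with 464 to 1271 counts in a library. Its level was 94.5, 98.1 and 118 CPM with vehicle. With tilianin it was 68.3, 71.5 and 124.6 CPM. Treated replicates 1 and 2 lay below all 2VO libraries and treated replicate 3 above them. The log2 fold change was -0.23 (standard error 0.277, 95% interval -0.88 to 0.42), with an adjusted p of 0.861 from edgeR's quasi-likelihood test. The counting error of 2.80% to 4.64% in a library was smaller than these differences. Without treated replicate 1 the log2 fold change was -0.0549, and without treated replicate 2 it was -0.0844, with an adjusted p of 0.997 from edgeR. Without treated replicate 3, the library that lay above the rest, the log2 fold change was -0.57 and edgeR gave an unadjusted p-value of 0.0289 and an adjusted p of 0.300, still short of the fold change criterion.

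miR-9a-5p ranked 11th, with 2.14% to 3.70% of all counts of a library. The level with vehicle was 34905, 34646 and 34377 CPM. The level with tilianin was 25970, 23669 and 34982 CPM. The 2VO libraries were almost level on this scale, treated replicates 1 and 2 lay below them, and treated replicate 3 lay just above. Mean levels were 34643 ± 264 CPM and 28207 ± 5979 CPM (SD, n = 3 each). The log2 fold change was -0.30 (standard error 0.186, 95% interval -0.74 to 0.14), with an adjusted p of 0.746 from edgeR's quasi-likelihood test. Without treated replicate 2 the change was -0.17 (standard error 0.179), with an adjusted p of 0.997 from edgeR, and without treated replicate 3 it was -0.49, with an unadjusted p-value of 0.0192 and an adjusted p of 0.300 from edgeR.

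The closeness of the 2VO libraries is a description of 3 values. Among the 269 miRNAs with a mean of at least 10 CPM, the standard deviation of log2(CPM + 1) over the 2VO libraries was 0.0110 for miR-9a-5p, and 1 miRNA had a smaller value. By library totals in place of TMM it was 0.0551, and 18 miRNAs had a smaller value, so the near equality rests on the scaling. With TMM it was 0.0524 for miR-9a-3p, 0.168 for miR-124-5p and 0.199 for miR-124-3p, beside a median of 0.166 over the 269 miRNAs. Over the 3 treated libraries the corresponding values were 0.294, 0.200, 0.478 and 0.447, beside a median of 0.369, all above those of the 2VO libraries. For miR-124-3p this order rests on treated replicate 2, since treated replicates 1 and 3 alone gave 0.0720, below its value in the 2VO libraries. For miR-9a-5p, miR-9a-3p and miR-124-5p treated replicates 1 and 3 alone gave 0.304, 0.165 and 0.607, beside a median of 0.200.

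miR-9a-3p ranked 20th and was the strand whose groups did not overlap. With vehicle it was at 7261, 7719 and 7744 CPM. With tilianin it was at 7257, 5504 and 6172 CPM. The highest treated library and the lowest 2VO library nearly touched, and the groups also lay apart when library totals replaced TMM (at most 7061 CPM against at least 7577 CPM). Of all tested miRNAs, 9.69% had groups that did not overlap, 4.19% with the treated group lower and 5.51% with it higher, and the 1 of 4 strands is to be read against that share. Mean levels were 7575 ± 272 CPM and 6311 ± 885 CPM (SD, n = 3 each). The log2 fold change was -0.26 (standard error 0.176, 95% interval -0.68 to 0.15), with an adjusted p of 0.746 from edgeR's quasi-likelihood test. A two-sided exact permutation of the libraries gave p = 0.1, the smallest that 3 libraries against 3 allow. For miR-124-3p, miR-124-5p and miR-9a-5p this exact permutation test gave p = 0.9, 0.4 and 0.4. Without treated replicate 2 the change of miR-9a-3p was -0.16 (standard error 0.170).

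**Figure D2:**
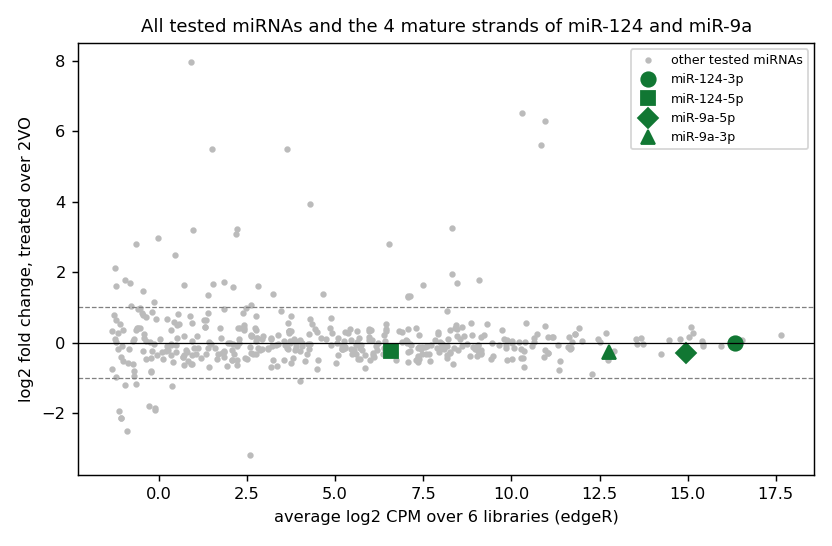
Log2 fold change (treated over 2VO) of every tested miRNA against its average log2 CPM from edgeR, with the strands of miR-124 and miR-9a in green and dashed lines at log2 fold changes of 1 and -1. The 4 strands lie between -0.30 and -0.01, inside the cloud of other miRNAs.

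Summed, the 4 strands held 12.6%, 11.4% and 14.4% of all counts in the vehicle libraries. They held 12.2%, 7.70% and 14.8% after tilianin. The mean was 12.8 ± 1.48% with vehicle and 11.6 ± 3.60% with tilianin (SD, n = 3 each). The difference of -1.25 percentage points became 0.679 without treated replicate 2 and -2.88 without treated replicate 3. Treated replicate 2 was the lowest and treated replicate 3 the highest of the 6 libraries. Treated replicate 2 was also the lowest library for 3 of the 4 strands, as it was for 33.3% of all tested miRNAs. Within this sum miR-124-3p took 63.6% to 73.4%, miR-9a-5p 20.8% to 29.7%, miR-9a-3p 4.41% to 6.62% and miR-124-5p at most 0.0891%. The order miR-124-3p, miR-9a-5p, miR-9a-3p, miR-124-5p held in every library without overlap between neighbours. Ligation and amplification differ between sequences, so these shares compare reads and not molecules.

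A ratio of 2 strands within a library does not depend on how libraries are scaled, and the arm ratios ask whether guide and passenger moved apart. For miR-124, 823, 756 and 816 reads of the 3p arm were counted per read of the 5p arm with vehicle. The ratio with tilianin was 1345, 781 and 791. Treated replicate 1 was set apart and the other 5 libraries lay close together. The difference of the mean log2 ratios was 0.24, with p = 0.7 in a two-sided exact permutation test. It was -0.0219 without treated replicate 1, the library that carries it, 0.37 without treated replicate 2 and 0.36 without treated replicate 3.

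For miR-9a, the 5p arm was counted 4.81, 4.49 and 4.44 times as often as the 3p arm with vehicle. With tilianin the ratio was 3.58, 4.30 and 5.67, so that the treated libraries lay on both sides of the 2VO libraries. The difference of the mean log2 ratios was -0.0450, with p = 0.8 in a two-sided exact permutation test. It was 0.11 without treated replicate 1 and -0.0228 without treated replicate 2. Without treated replicate 3 it was -0.22 and the groups no longer overlapped, with p = 0.1 in the exact permutation test, the smallest that 2 libraries against 3 allow. Among 151 hairpins with both arms tested, the median excess of the more abundant arm was 19.9-fold. miR-124 ranked 17th by this excess and miR-9a 110th, so miR-124 was among the more one-sided hairpins and miR-9a among the less one-sided. The absolute change of the log2 ratio between groups had a median of 0.217 over these hairpins, close to that of miR-124 and above that of miR-9a. Neither ratio separated the groups, beside 7.95% of the 151 hairpins.

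Between the families, miR-124-3p was counted 2.23, 2.14 and 2.79 times as often as miR-9a-5p with vehicle. With tilianin it was counted 3.54, 2.36 and 2.82 times as often. The difference of the mean log2 ratios was 0.27, with p = 0.2 in a two-sided exact permutation test, and the groups overlapped. It was 0.12 without treated replicate 1 and 0.41 without treated replicate 2. The lowest treated value, in replicate 2, lay between the 2VO values. Thus the library with the least miR-124-3p and the least miR-9a-5p held them in a proportion seen in the 2VO libraries.

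**Figure D3:**
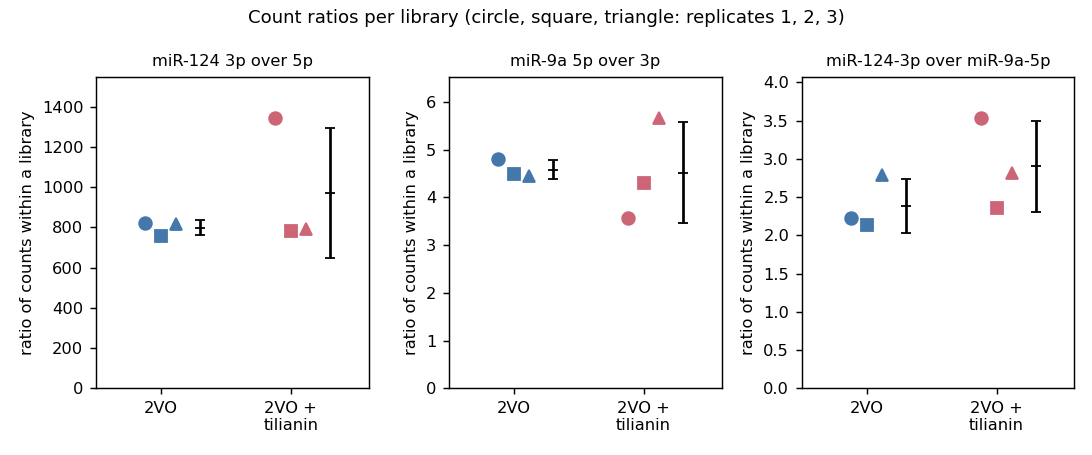
Ratios of counts within each library (linear axes from 0) for the miR-124 arms, the miR-9a arms, and miR-124-3p over miR-9a-5p, with 2VO in blue, tilianin-treated in red, and the mean ± SD in black (n = 3). The miR-124 arm ratio of treated replicate 1 (1345) lies above the other 5 libraries, which are between 756 and 823.

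The antisense strands were rare. miR-9b-3p had 60, 71 and 30 counts with vehicle and 32, 15 and 37 counts with tilianin. Treated replicate 2 was lowest and the groups overlapped. miR-9b-5p had 7, 18 and 6 counts and 7, 7 and 3 counts, respectively. Their log2 fold changes were -0.62 (standard error 0.350, adjusted p = 0.746) and -0.45 (standard error 0.542, adjusted p = 0.861) in edgeR's quasi-likelihood test. Counting error alone was 11.9% to 25.8% for miR-9b-3p and 23.6% to 57.7% for miR-9b-5p.

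For every read of miR-9b-3p there were 1110 to 2383 reads of miR-9a-3p, which it resembles, and 5338 to 10246 reads of miR-9a-5p, which it complements. The mismatches allowed in counting are not given in the sources used here, and whether miR-9b counts hold reads of miR-9a was not tested.

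The neurons of these samples were also read from 16 other neuron-enriched miRNAs, a list that holds miR-128-3p, abundant in postmitotic neurons, the activity-regulated pair miR-132-3p and miR-212-3p from a shared transcript, and miR-137-3p and miR-138-5p, which act in dendrites and synapses. All 16 were tested, and 0 were upregulated and 0 downregulated at the criterion. Of all tested miRNAs, 4.63% were upregulated and 1.10% downregulated, so 0 of 16 does not set the list apart. The median log2 fold change of the 16 was -0.33, with 14 of 16 below 0. Over all tested miRNAs it was -0.03, with 242 of 454 below 0. Without treated replicate 2 the median of the 16 was -0.04, with 11 of 16 below 0. The median over all tested miRNAs was then 0.01, so fewer of them lay below 0 than above it. Bulk tissue cannot separate the number of neurons from the level of a miRNA per neuron, and neither was tested.

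**Figure D4:**
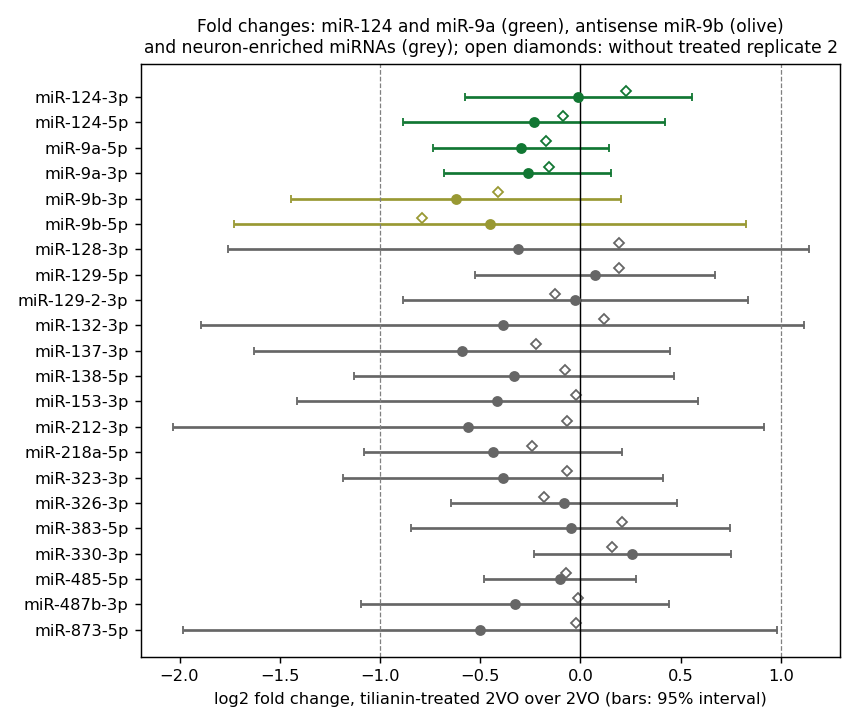
Log2 fold changes (treated over 2VO) with 95% intervals from edgeR for miR-124 and miR-9a (green), antisense miR-9b (olive) and 16 neuron-enriched miRNAs (grey); open diamonds are the values without treated replicate 2 and dashed lines mark 1 and -1. All intervals cross 0, and the interval of miR-9a-5p, -0.74 to 0.14, is narrower than that of miR-128-3p.

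Treated replicate 2 set the neuron-enriched list and the 4 strands apart in size. Its levels of miR-124-3p, miR-124-5p, miR-9a-5p and miR-9a-3p were 67.5%, 69.1%, 68.3% and 72.7% of the 2VO mean. The corresponding level was 18.2% for miR-128-3p, 16.6% for miR-132-3p, 16.2% for miR-212-3p, 28.7% for miR-137-3p and 30.4% for miR-153-3p. These miRNAs were thus much further below the 2VO libraries than miR-124 and miR-9a were. Other listed miRNAs were close to or above the 2VO mean there, with 90.2% for miR-129-5p, 91.2% for miR-485-5p and 138.2% for miR-330-3p. The 16 had a median of 47.3%, beside 98.0% over all tested miRNAs.

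The contrast can also be read as ratios within a library, and these depend on the partner. The level of miR-128-3p was 17881, 17574 and 28697 CPM with vehicle and 24221, 3885 and 23657 CPM with tilianin. miR-124-3p was counted 3.35 to 4.35 times as often as miR-128-3p in the other 5 libraries and 14.4 times as often in treated replicate 2. For miR-9a-5p the ratio to miR-128-3p was 1.07 to 1.97 in those 5 libraries and 6.09 in treated replicate 2. Against each of the 16 listed miRNAs in turn, the ratio of miR-124-3p in treated replicate 2 lay above the other 5 libraries for 8, within their range for 3 and below it for 5. For miR-9a-5p it lay above for 10, within for 2 and below for 4. Below the range was miR-124-3p over miR-330-3p, at 185 in treated replicate 2 and 309.6 to 467 in the other 5 libraries. This concerns a single library and has no test. The differences between groups in the log2 ratios to miR-128-3p were 0.63 and 0.36, with p = 0.6 and 0.9 in two-sided exact permutation tests. Both positive differences rest on treated replicate 2. Treated replicates 1 and 3 had ratios of 3.79 and 4.17 for miR-124-3p, inside the vehicle range of 3.35 to 4.35. For miR-9a-5p they had 1.07 and 1.48, beside 1.95, 1.97 and 1.20 with vehicle.

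**Figure D5:**
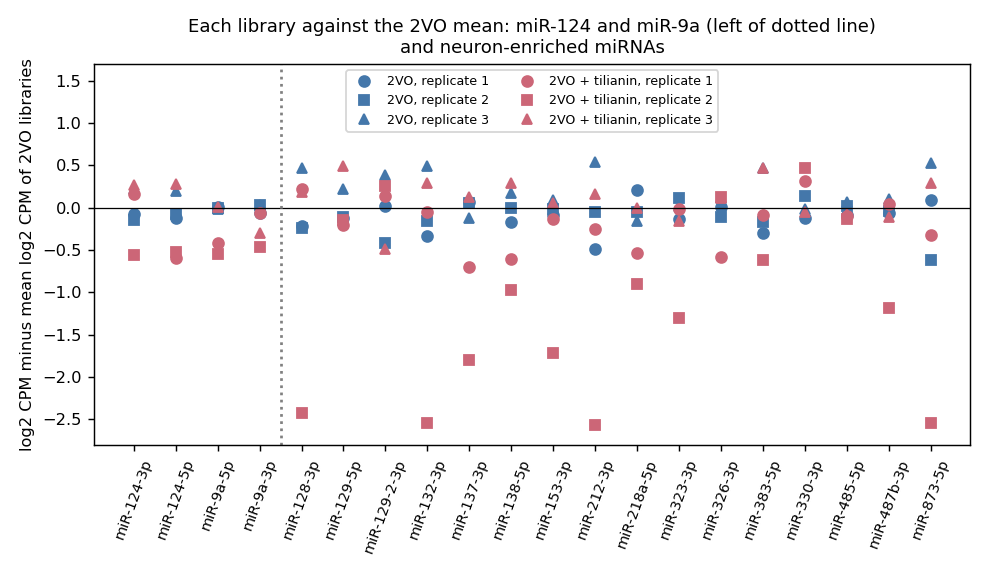
Log2 CPM of each library minus the mean log2 CPM of the 2VO libraries for the strands of miR-124 and miR-9a (left of the dotted line) and 16 neuron-enriched miRNAs, with 2VO in blue, tilianin-treated in red and a symbol for each replicate. Treated replicate 2 (red square) lies about as low for all 4 strands, at 67.5% to 72.7% of the 2VO mean, and far lower for miR-128-3p at 18.2%.

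The summed levels of several marker lists of other tissues and cells were highest in the same library. The summed Hox-cluster miRNAs (3 of 4 listed were tested, 2 upregulated) came to 321, 21658 and 489 CPM with tilianin. The choroid plexus miRNAs (4 tested, 3 upregulated) came to 349, 1078 and 123 CPM with tilianin, the range with vehicle being 120 to 152 CPM. In treated replicate 2 miR-204-5p alone held 1064 CPM of that sum. The remaining member, miR-449a-5p, was at 47.6% of the 2VO mean in that library and had a log2 fold change of -0.59. The erythroid list (2 of 4 tested, 1 upregulated) had 406, 880 and 338.1 CPM against 154 to 198 CPM. In that sum miR-486 alone held 405.9, 876.4 and 337.6 CPM. The other tested erythroid member, miR-144-3p, had 56 counts over the 6 libraries, and its groups overlapped. Its log2 fold change was 0.60, and -1.14 without treated replicate 2. miR-144-5p and miR-451-5p were listed but not among the tested miRNAs. The muscle list (3 of 5 tested, 1 upregulated) had 182, 492 and 121 CPM against 88.5 to 131 CPM. The microglia and leukocyte list (6 tested, 1 upregulated) had 1121, 1403 and 998 CPM against 776 to 1163 CPM. Treated replicate 2 was the highest library for 4 of these 6 miRNAs. In that library miR-146a-5p was at 93.2% of the 2VO mean. There miR-150-5p, at 647 CPM, lay within its vehicle range of 447 to 700 CPM. Without treated replicate 2, 2 Hox-cluster, 1 choroid plexus and 1 erythroid miRNA met the criterion as upregulated, and 0 of the muscle or microglia and leukocyte lists did. The calls in these lists and those below stand beside the shares over all tested miRNAs. These were 4.63% upregulated and 1.10% downregulated with all libraries, and 2.02% and 0.899% without treated replicate 2.

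The mural and mesenchymal list (3 of 5 tested, 1 upregulated with and without treated replicate 2) had a low sum, at 4.78, 7.08 and 7.69 CPM after tilianin against 2.16 to 4.14 CPM. Of its members miR-214-3p alone had groups that did not overlap, beside 5.51% of all tested miRNAs with the treated group higher. The groups overlapped for miR-143-3p and for miR-145-5p, which had 14 counts over the 6 libraries. The oligodendrocyte list (2 of 4 tested, 0 called) had 31.7, 50.4 and 17.5 CPM against 18.2 to 35.2 CPM, with treated replicate 2 the highest library for both tested members. Its defining strand miR-219a-5p had at most 1 count in a library. The endothelial list (2 tested, 0 called) had 6863, 6509 and 7203 CPM against 5372 to 8553 CPM, within the range with vehicle. The part of these tissues in the levels of miR-124 and miR-9a was not tested. A further list of miRNAs known from neural stem cells and neurogenesis (8 of 12 tested) had 0 called and a median log2 fold change of -0.0099. Its members went both ways, with 4 of 8 below 0, and its median was 0.08 without treated replicate 2. In that library they lay between 28.7% (miR-137-3p, also on the neuron-enriched list) and 706% (miR-34a-5p) of the 2VO mean.

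The miRNAs most like each strand across the 6 libraries were found from the root mean squared difference of log2(CPM + 1) after each miRNA's own mean was removed, among 268 candidates. For miR-124-3p these were miR-24-2-5p, miR-3556a and miR-434-3p, at 0.0427, 0.0914 and 0.105, beside a median of 0.368. For miR-124-5p they were miR-322-5p, miR-499-5p and miR-369-5p, at 0.128, 0.160 and 0.162, closely followed by miR-9a-5p at rank 4. For miR-9a-5p they were miR-673-3p, miR-103-3p and miR-341, at 0.0722, 0.0833 and 0.0906. For miR-9a-3p they were miR-541-5p, miR-582-3p and miR-3586-3p, at 0.0494, 0.0941 and 0.0959.

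Arms of the same hairpin were no closer to each other than to many other miRNAs. miR-124-5p ranked 84th in likeness to miR-124-3p, at 0.285, and miR-9a-3p ranked 38th in likeness to miR-9a-5p, at 0.197. These distances cover 6 libraries and carry no test.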

How the data were processed

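The authors sequenced TruSeq small RNA libraries from 2 μg of total RNA and deposited read counts per mature miRNA, without normalization, for 6 libraries. The submitters' processing notes name FastQC 0.11.2, Trimmomatic 0.36, cutadapt 1.14 and DESeq2 1.12.4, while the aligner, the miRNA reference and the counting rule are not given in the sources used here. In order of replicate, the vehicle libraries hold 8738208, 13198776 and 7428890 counts, and the tilianin libraries 9464216, 7175872 and 7736119. Groups were taken from the sample titles, and columns were matched by library code. No molecular identifiers are mentioned, so counting errors cover counting alone.

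The 454 miRNAs whose counts sum to 10 or more were kept, scaled with TMM and tested by quasi-likelihood in edgeR 4.0.16 under R 4.3.3, with DESeq2 1.42.0 and limma 3.58.1 for alternatives. The model had group as the single term and Benjamini-Hochberg adjustment over all tested miRNAs. Standard errors and 95% intervals are approximations obtained from the F statistic of each fold change. Log2 ratios used an offset of 0.5 counts, and exact permutation tests of single strands used log2(CPM + 1). The code was tested on simulated data. The strands, lists and alternatives were chosen with earlier results of these data known. The text names the 4 strands, rows sharing a seed or within 3 edits, the list members and the 3 nearest miRNAs of each strand. Alternatives were other scalings, filters and tests, leaving out single libraries, and a replicate block. The alternatives for the spread within groups and the ratios to each neuron-enriched miRNA were added after seeing the data. Sequences are from RefSeq (GRCr8).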

Additional observations from a re-analysis of the deposited data

How the results depend on the processing

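The 4 strands stayed short of the criterion under all 8 alternative settings and all 6 fits that each left out a library. The log2 fold changes of miR-124-5p, miR-9a-5p and miR-9a-3p stayed below 0 throughout, between -0.57 and -0.05, -0.49 and -0.17, and -0.35 and -0.16 in the fits without a library. That of miR-124-3p, near 0, turned positive with filterByExpr (0.0135), the Wald test of DESeq2 (0.0030) and its size factors in edgeR (0.0030), and lay between -0.17 and 0.23 (without treated replicate 2) in the fits without a library. The difference in log2 arm ratio lay between -0.0219 and 0.37 for miR-124 and between -0.22 and 0.11 for miR-9a, and the difference in summed share between -2.88 (without treated replicate 3) and 0.679 percentage points (without treated replicate 2). What causes these shifts was not tested. Over all miRNAs, the upregulated were 6 with limma-voom, 9 with the replicate block, and between 7 (2VO replicate 2 left out) and 29 (treated replicate 1 left out) when single libraries were dropped. The downregulated were 8 with library totals, 2 with filterByExpr, 3 by Wald test, 3 by limma-voom and 2 to 5 in the fits without a library. An adjusted p under 0.05 was reached by 3 miRNAs in the Wald test of DESeq2 and by 0 to 4 (treated replicate 2 left out) when single libraries were dropped. There was no sign that replicate numbers pair the libraries. These numbers follow the sample titles, and the library code of 2VO replicate 3 carries a different number. Deviations from group means correlated at -0.0891, 0.0134 and 0.192, and 2 of 6 libraries matched their own number best. With 3 libraries a group, these values cannot exclude a pairing. With the replicate block the log2 fold changes of the strands were -0.04, -0.28, -0.32 and -0.27 for miR-124-3p, miR-124-5p, miR-9a-5p and miR-9a-3p. Only 3 libraries a group limit what could be detected for abundant strands, and counting limits it for miR-9b.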
